A study of Mus musculus with 6 samples.

Results

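The genes described here are the 3 peroxisome proliferator-activated receptors (PPARs), Ppara, Pparg and Ppard, and 6 genes that these receptors are known to regulate, Slc27a2, Pex11a, Cpt1a, Plin2, Pdk4 and Angptl4. All 14 probe sets annotated with these 9 symbols were taken, out of 45037 probe sets and 17097 named genes on the array. Slc27a2 and Pex11a were selected on their difference between knockout and wild type on these same arrays, so their values are given as a description, with no test. The other 7 genes were chosen as receptors and targets of the same pathway, to see whether they followed.

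Dendritic cells positive for CD11c, a surface integrin of antigen-presenting cells, had been sorted by flow cytometry from the spleens of C57Bl/6 mice. The wild-type group and the Map3k7 knockout group (genotype Map3k7CreER) each had 3 samples, each hybridised to 1 Affymetrix 3' expression array. Both groups had received tamoxifen in vivo for 3 days, which in the knockout mice activates the CreER recombinase and deletes Map3k7, the gene of the kinase TAK1. The promoter that drives CreER, the age of the mice and whether wild-type mice carried CreER are not given in the sources used here, and neither is the number of animals behind the samples. The p-values therefore reflect the spread among these 6 arrays, which may be technical.

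PPARs are nuclear receptors that bind fatty acids and related lipids. Each pairs with a retinoid X receptor (RXR) and binds a direct repeat of a short DNA element near genes of fatty acid uptake, storage and oxidation. PPAR-alpha is best known from liver, where its activation multiplies peroxisomes and induces fatty acid oxidation. PPAR-gamma is known from adipocytes, macrophages and dendritic cells, and PPAR-delta is expressed widely.

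Signals are robust multi-array average (RMA) values on a log2 scale, on which a step of 1 is a doubling. Array medians were 3.77 to 3.81, and a probe set near or below that level may belong to a transcript that is not expressed. Such dim probe sets also understate changes, and RMA leaves no detection call. With 3 arrays a group, precision was limited throughout. On the 3 bright Map3k7 probe sets each knockout array lay below each wild-type array, with differences of -2.60, -2.34 and -3.25 (limma, Benjamini-Hochberg adjusted p at most 0.0181), and the other 2 were dim. Markers of the labelled cell type were bright: of 13 dendritic cell markers 0 were below the array median throughout, and their mean level was 11.06 to 11.15 on the wild-type arrays and 10.93 to 11.04 on the knockout arrays. Of these, 8 had negative differences and 5 positive ones, and 1, the kynurenine enzyme Kmo, was called (0.66, limma adjusted p = 0.0385). Named after their values were seen, the transcription factor Zbtb46 had a difference of -0.75 (limma adjusted p = 0.0621) on the brightest of 4 probe sets, with 2 of the other 3 called lower (-0.84 and -0.93), and Xcr1 and Irf8 stood at -0.81 and -0.59 without overlap (limma adjusted p = 0.14 and 0.121).

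Slc27a2 and Pex11a both went from a signal a little above the array median to a bright one. Slc27a2 encodes FATP2, an acyl-CoA synthetase and transporter for long and very long chain fatty acids that is found on peroxisomes and the endoplasmic reticulum. Its probe set read 4.42, 4.08 and 4.73 on the wild-type arrays and 8.87, 9.04 and 9.26 on the knockout arrays. The lowest knockout array stood more than 4 log2 units above the highest wild-type array. The difference was 4.65 (SE 0.18), a 25-fold higher signal, and it ran from 4.48 to 4.81 over 15 alternative settings.

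Pex11a encodes PEX11-alpha, a membrane protein of peroxisome elongation and division and a known PPAR-alpha target in liver. Its first probe set read 4.22, 4.33 and 5.25 in wild-type cells and 7.94, 8.15 and 8.28 in knockout cells. Wild-type replicate 3 was the highest of its group there, and still far below the knockout arrays. The second probe set read 4.68, 4.64 and 4.72 in wild-type cells and 7.79, 7.81 and 8.19 in knockout cells, with no such high wild-type array. The differences were 3.52 (SE 0.26) and 3.25 (SE 0.13), so both probe sets gave rises of 11.5-fold and 9.50-fold.

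**Figure D1:**
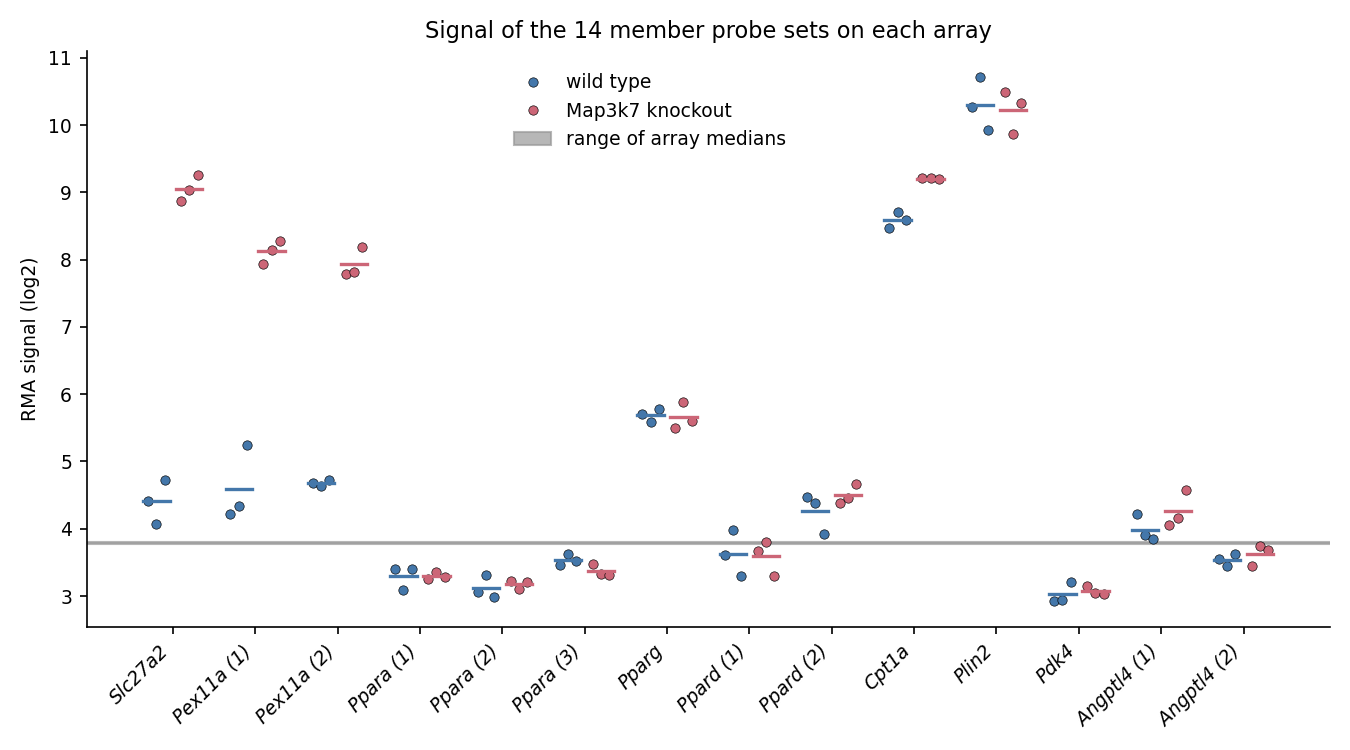
RMA signal (log2) of the 14 member probe sets on each of the 3 wild-type and 3 knockout arrays, with a short line at each group mean and a grey band for the range of array medians (3.77 to 3.81). Slc27a2, both Pex11a probe sets and Cpt1a have groups that do not overlap, and the groups of the other 10 probe sets overlap.

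The sequences before the start sites of both genes are shown because PPARs act through an element in the DNA near their targets. They are the 250 bases before the start in RefSeq's annotation of build GRCm38.p6, written 5′ to 3′ along the gene. Capitals mark the stretch with the fewest mismatches to the PPAR-RXR consensus, and only the first such stretch where several tie. That consensus is a direct repeat of AGGTCA with 1 free base between the copies and 12 fixed letters, searched on both strands.
Slc27a2, chr2:126552774-126553023, + strand: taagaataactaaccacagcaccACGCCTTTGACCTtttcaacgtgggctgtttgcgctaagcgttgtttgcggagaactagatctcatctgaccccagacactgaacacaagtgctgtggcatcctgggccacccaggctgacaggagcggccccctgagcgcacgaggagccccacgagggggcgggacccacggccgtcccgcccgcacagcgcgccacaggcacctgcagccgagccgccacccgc
Pex11a, chr7:79743132-79743381, - strand: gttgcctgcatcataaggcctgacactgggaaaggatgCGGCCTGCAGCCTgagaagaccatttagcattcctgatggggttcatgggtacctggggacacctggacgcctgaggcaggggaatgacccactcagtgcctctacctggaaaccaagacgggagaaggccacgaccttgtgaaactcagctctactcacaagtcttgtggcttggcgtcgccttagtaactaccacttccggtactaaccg
The Slc27a2 stretch lies on the opposite strand, ends 214 bases before the start and has 3 mismatches. In Pex11a the marked stretch, also on the opposite strand, has 5 mismatches. Of all 32851 RefSeq start-site windows of the same length, 21.3% hold a stretch with at most 3 mismatches, 3.24% with at most 2 and 0.0335% with 0. A match is a description of letters and not a shown binding site, and a window without one leaves elements elsewhere unexamined.

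None of the 3 receptors changed past the threshold, which was an adjusted p under 0.05 (limma, Benjamini-Hochberg over all 45037 probe sets). Of their 6 probe sets 0 passed, also at an unadjusted p under 0.05, with 2 positive and 4 negative differences. Pparg, the receptor best known in myeloid cells, read 5.71, 5.59 and 5.78 in wild-type cells and 5.50, 5.88 and 5.60 in knockout cells. The groups overlapped fully, and knockout replicate 2 was the highest and knockout replicate 1 the lowest of all 6 arrays. Its difference was -0.03 with a 95% interval from -0.32 to 0.25 (limma adjusted p = 0.954).

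Ppara, the receptor that controls Pex11a in liver, was below the array median on all arrays with all 3 of its probe sets. The brightest read 3.47, 3.62 and 3.52 in wild-type cells and 3.47, 3.33 and 3.31 in knockout cells. Its groups overlapped, and its difference was -0.17 (95% interval -0.39 to 0.06, limma adjusted p = 0.574). The other probe sets differed by 0.00 and 0.06.

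Ppard was dim. Its brighter probe set read 4.48, 4.38 and 3.92 in wild-type cells and 4.39, 4.46 and 4.67 in knockout cells. Wild-type replicate 3 was lowest and the groups overlapped. The difference was 0.25 (95% interval -0.12 to 0.62, limma adjusted p = 0.634), and the dimmer probe set stood at -0.04.

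Of the 7 receptors and targets that were not chosen for their change, 1 was called higher and 0 lower, which was Cpt1a. Across all genes 1.67% were called (1.08% higher and 0.591% lower, of 17097), and over probe sets 1.19% (0.804% higher and 0.391% lower). The median difference of the 7 was 0.04, against -0.02 over all genes.

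Cpt1a encodes carnitine palmitoyltransferase 1A, which loads long chain fatty acids onto carnitine for entry into mitochondria and is the controlled step of their oxidation. It read 8.48, 8.71 and 8.60 in wild-type cells and 9.21, 9.21 and 9.19 in knockout cells. The knockout arrays lay close together and above all wild-type arrays. Groups without overlap were also found for 21.2% of all genes (10.6% with the knockout higher) and for 17.5% of all probe sets. The difference was 0.61 (SE 0.10, 95% interval 0.38 to 0.83, limma adjusted p = 0.0318), a 1.52-fold higher signal. It passed in 9 of 9 alternative settings. With any 1 of the 6 arrays left out it did not pass (0 of 6 fits, differences 0.55 to 0.67, adjusted p = 0.0614 to 0.145).

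The other 3 targets that, with Cpt1a, are standard readouts of PPAR activity did not pass. Plin2 encodes perilipin 2, the coat protein of lipid droplets in most cells. It was bright, with 10.27, 10.72 and 9.93 in wild-type cells and 10.50, 9.87 and 10.32 in knockout cells. These groups interleaved, and the difference was -0.07 (95% interval -0.60 to 0.45, limma adjusted p = 0.944).

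Pdk4 encodes pyruvate dehydrogenase kinase 4, which turns cells from glucose to fatty acid oxidation. It read 2.93, 2.95 and 3.22 in wild-type cells and 3.15, 3.04 and 3.03 in knockout cells, below the array median on all 6 arrays. The difference was 0.04 (95% interval -0.21 to 0.30, limma adjusted p = 0.929). Angptl4 encodes a secreted inhibitor of lipoprotein lipase. Its brighter probe set read 4.21, 3.91 and 3.84 in wild-type cells and 4.06, 4.16 and 4.57 in knockout cells, with overlapping groups. The difference was 0.28 (95% interval -0.10 to 0.65, limma adjusted p = 0.584), and the dimmer probe set stood at 0.08. The highest upper interval bound among the 6 members that did not pass was 0.65, while Slc27a2 and Pex11a differed by 4.65 and 3.52. Plin2 and Pparg were well above the array median, whereas Pdk4, Angptl4, Ppara and Ppard were close to it or below.

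**Figure D2:**
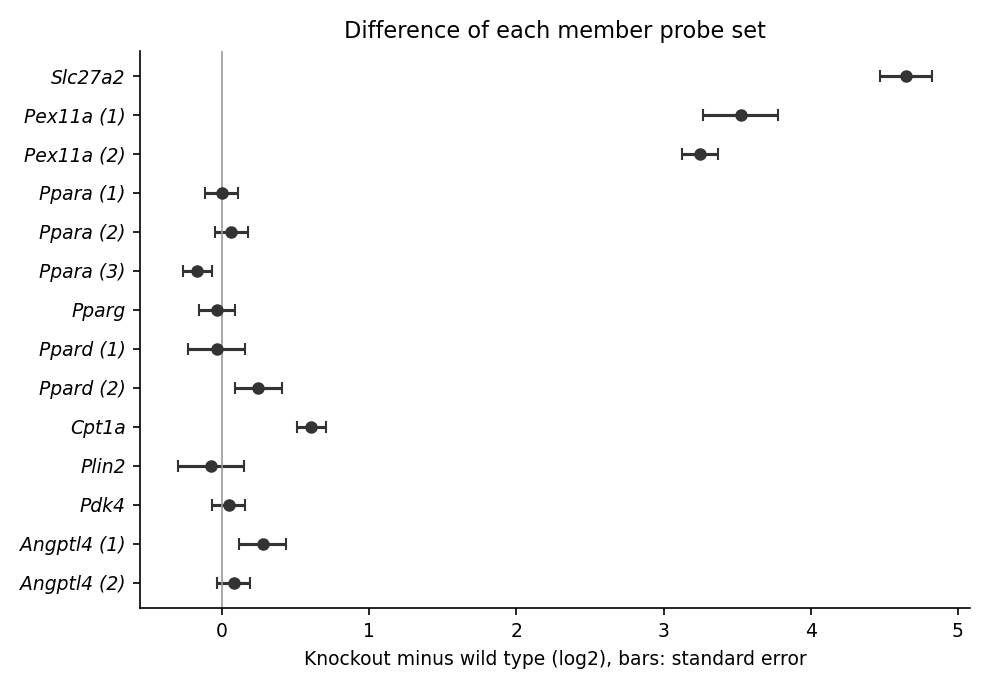
Knockout minus wild type (log2) for each of the 14 member probe sets, with bars of 1 standard error from limma. Slc27a2 (4.65) and Pex11a (3.52 and 3.25) stand far from the rest, Cpt1a is at 0.61, and the other 10 probe sets lie between -0.17 and 0.28.

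The 250 bases before Cpt1a and Plin2 are given in the same way, the first because Cpt1a was the called member and the second because its window has the closest match of all members.
Cpt1a, chr19:3323051-3323300, + strand: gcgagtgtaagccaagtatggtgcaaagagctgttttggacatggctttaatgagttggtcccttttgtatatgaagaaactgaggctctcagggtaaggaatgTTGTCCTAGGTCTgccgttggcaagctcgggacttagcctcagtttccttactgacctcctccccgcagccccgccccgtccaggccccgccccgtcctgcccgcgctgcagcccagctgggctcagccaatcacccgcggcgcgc
Plin2, chr4:86670060-86670309, - strand: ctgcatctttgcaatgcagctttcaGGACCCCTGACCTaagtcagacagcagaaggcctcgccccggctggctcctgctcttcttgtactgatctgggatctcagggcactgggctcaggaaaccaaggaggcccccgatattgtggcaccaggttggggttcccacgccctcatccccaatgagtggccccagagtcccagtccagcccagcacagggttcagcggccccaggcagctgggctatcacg
The Plin2 stretch has 2 mismatches, lies on the opposite strand and ends 212 bases before the start, and Plin2 was not called. The Cpt1a stretch has 4 mismatches. Windows were held for 8 of the 9 members (10 windows, 3 of them for Pparg, and none for Angptl4), of which 1 had at most 2 mismatches and 2 had at most 3. Slc27a2, Pex11a and Cpt1a thus had windows with 3, 5 and 4 mismatches. Their GC contents were 64%, 55.6% and 59.6%, with 19, 8 and 14 CpG dinucleotides, against medians of 52.4% and 6 over all windows.

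**Figure D3:**
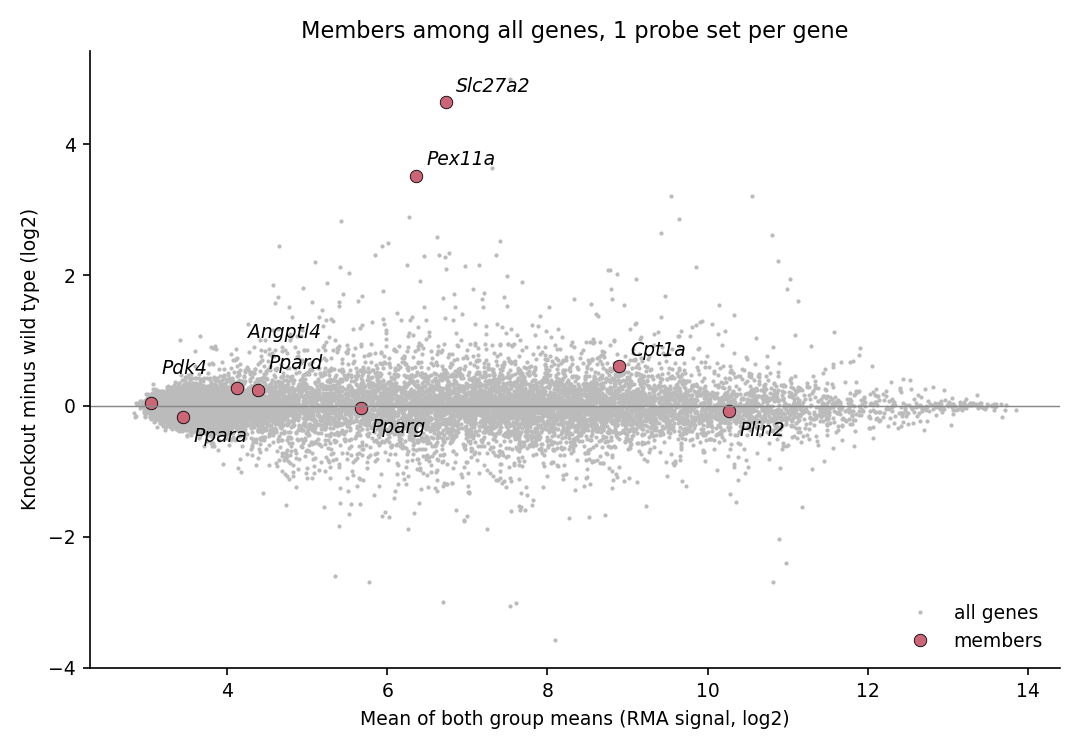
Knockout minus wild type (log2) against the mean of both group means (RMA signal, log2) for 17097 genes, 1 probe set per gene, with the 9 members in red. Slc27a2 (4.65) and Pex11a (3.52) lie among the few genes at the top, Cpt1a lies at 0.61, and the other 6 members lie between -0.17 and 0.28.

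Apart from Pex11a and Slc27a2, which are described with no test, none of the listed peroxisomal genes passed the threshold. Across all 17097 genes, 2805 had an unadjusted p under 0.05 (limma), the share to set beside the counts at that level below. Of 18 measured peroxins and division proteins 0 were called in either direction (limma), and 3 had an unadjusted p under 0.05, 1 higher and 2 lower. Their median difference was -0.01, with 9 positive and 9 negative. Pex16, which helps insert peroxisomal membrane proteins, stood at -0.52 (limma adjusted p = 0.226), and Pex5l, a dim relative of the import receptor PEX5, at 0.23 (limma adjusted p = 0.321). The closest measured relative of Pex11a, Pex11g, had a difference of 0.11 (limma adjusted p = 0.875) on the brightest of its 3 probe sets, with levels of 4.66, 4.93 and 4.46 in wild-type cells and 5.02, 4.54 and 4.80 in knockout cells.

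Of 21 measured genes of peroxisomal fatty acid oxidation 0 were called, and 5 had an unadjusted p under 0.05, all 5 higher. Their median was 0.01, with 11 positive and 10 negative differences. The smallest p-values belonged to Eci2, an enoyl-CoA isomerase (0.53, SE 0.14, limma adjusted p = 0.148), and Acaa1a, a peroxisomal thiolase (0.33, SE 0.10, limma adjusted p = 0.214). Eci2 read 8.70, 8.65 and 8.24 in wild-type cells and 8.97, 9.19 and 9.01 in knockout cells, and Acaa1a 9.48, 9.57 and 9.32 against 9.71, 9.85 and 9.79. This Acaa1a probe set can match several transcripts. The other Acaa1a probe sets stood at 0.46, 0.41 and 0.24 (limma adjusted p = 0.355, 0.285 and 0.50). Of these, the groups overlapped only on the last. On the probe sets that stood for them, Eci2 and Acaa1a both had groups without overlap. Neither gene passed in any of 15 alternatives. Of 16 other peroxisomal matrix enzymes 0 were called, with 0 at an unadjusted p under 0.05 and a median of -0.03, and the smallest p-values were those of the isocitrate dehydrogenase Idh1 (-0.48, limma adjusted p = 0.496) and the peroxisomal protease Tysnd1 (-0.34, limma adjusted p = 0.478). In the 15 alternatives these 3 peroxisomal lists had 0 called genes each.

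In the mitochondrial pathway that Cpt1a feeds, 1 of 20 measured genes was called higher and 0 lower. This was Acadvl, the very long chain acyl-CoA dehydrogenase of the first oxidation step, with 8.01, 7.73 and 7.72 in wild-type cells and 8.50, 8.46 and 8.40 in knockout cells. Its groups did not overlap, and its difference was 0.63 (SE 0.11, limma adjusted p = 0.0421). The next smallest p was that of Slc22a5, the plasma membrane carnitine transporter, which stood at -0.59, in the other direction (SE 0.11, limma adjusted p = 0.0589), from 7.89, 8.24 and 8.07 to 7.54, 7.47 and 7.43. The list had 11 positive and 9 negative differences and a median of 0.09. In it 5 genes had an unadjusted p under 0.05 (limma), 4 higher and 1 lower. Cpt1b and Cpt1c, the muscle and brain forms of Cpt1a, and Cpt2, which acts after it, stood at -0.04, 0.13 and -0.10 (limma adjusted p = 0.938, 0.675 and 0.853). The carnitine carrier Slc25a20, named here after its values were seen because it acts between Cpt1a and Cpt2, stood at 0.47 (SE 0.11, limma adjusted p = 0.10).

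Among 37 other PPAR target genes 2 were called higher, 0 lower and 35 did not pass, with a median of 0.03 and 20 positive differences. An unadjusted p under 0.05 (limma) was found for 11, 8 higher and 3 lower, against 2805 of all 17097 genes. Groups did not overlap for 12, 8 of them with the knockout higher, against 21.2% of all genes (10.6% higher). The 2 called genes were Acadvl and Acot2, a mitochondrial acyl-CoA thioesterase. Acot2 read 4.37, 3.80 and 3.82 in wild-type cells and 5.45, 5.13 and 4.88 in knockout cells, without overlap. Its difference was 1.16 (SE 0.20, limma adjusted p = 0.0392). This probe set can match several transcripts, and the close relative Acot1 stood at 0.51 (SE 0.14, limma adjusted p = 0.163). The other Acot2 probe set stood at 0.32 (limma adjusted p = 0.523), and the mean of both at 0.74. Cd36 and Fabp4, classical PPAR-gamma targets named after their values were seen, stood at -0.26 (limma adjusted p = 0.575) and -0.68 (limma adjusted p = 0.141). The other Fabp4 probe sets stood at 0.19 and -0.41 (limma adjusted p = 0.499 and 0.376). Those of Cd36 stood at -0.27 and -0.39, the latter without overlap (limma adjusted p = 0.408 and 0.229). Also named after their values were seen, Lpl stood at -0.87 (limma adjusted p = 0.0837) and Hilpda at 0.95 (limma adjusted p = 0.0795), both without overlap. The dimmer Lpl probe set stood at -0.19 with overlapping groups (limma adjusted p = 0.713).

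**Figure D4:**
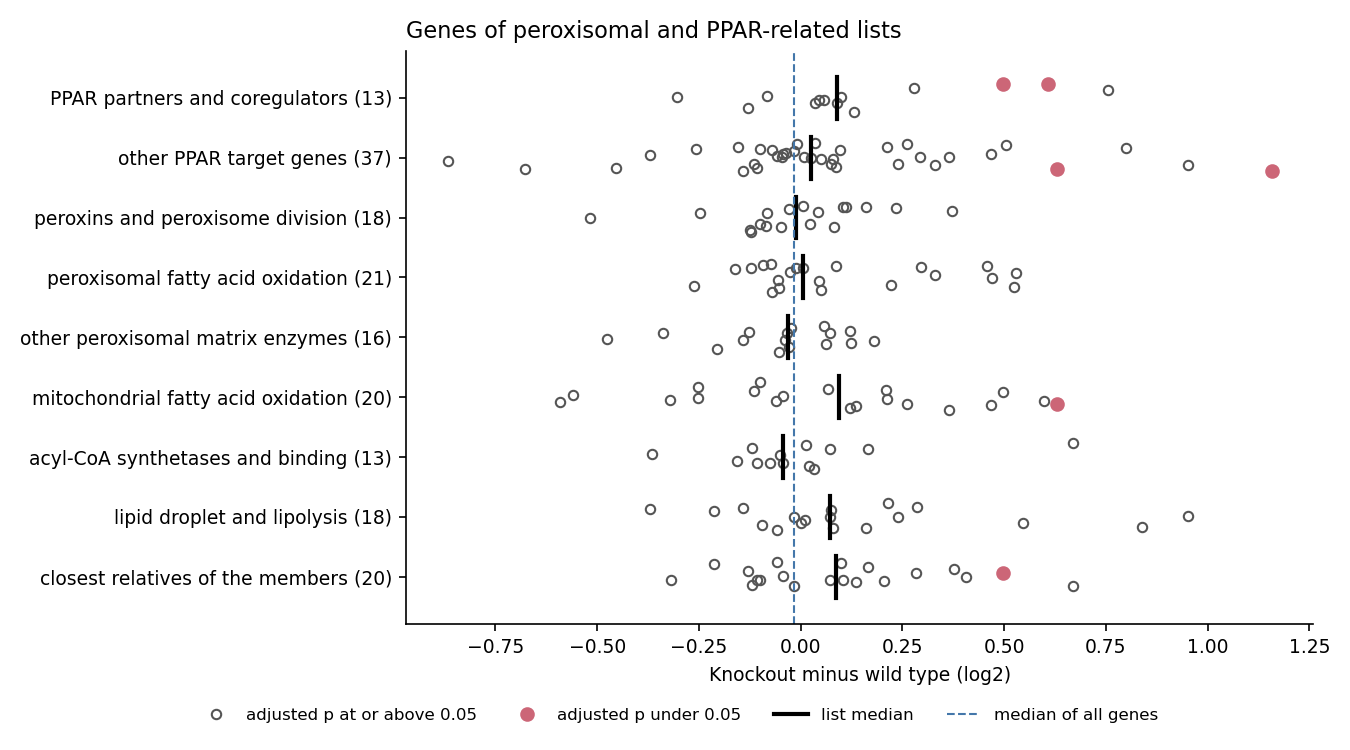
Knockout minus wild type (log2) of each measured gene of the 9 lists, the number of genes in brackets, filled red where the adjusted p was under 0.05, with a black bar at the list median and a dashed line at the median of all genes (-0.02). List medians lie between -0.04 and 0.09, and the red points are Rxrb (in both the first and the last list), Ppargc1b, Acadvl (in both target and mitochondrial lists) and Acot2.

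Of 13 measured partners and coregulators of the receptors, 2 were called higher, 0 lower and 11 did not pass, with a median of 0.09. Rxrb, an RXR partner of all 3 PPARs, read 8.69, 8.56 and 8.68 in wild-type cells and 9.14, 9.11 and 9.18 in knockout cells. Its groups did not overlap, and it rose by 0.50 (SE 0.09, limma adjusted p = 0.0492), just inside the threshold. Ppargc1b, a coactivator of mitochondrial and fatty acid oxidation genes, read 3.29, 3.34 and 3.27 in wild-type cells and 3.87, 3.92 and 3.94 in knockout cells, and rose by 0.61 (SE 0.09, limma adjusted p = 0.0211). All wild-type values lay below the array median and all knockout values slightly above it. The other RXR genes, Rxra and Rxrg, stood at 0.10 and -0.13 (limma adjusted p = 0.87 and 0.704).

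The calls beside Cpt1a were mostly lost with 1 array left out, and some were lost in other settings. With 1 array left out Acot2 passed in 2 of 6 fits, Ppargc1b in 1, and Rxrb and Acadvl in 0. Those fits have fewer arrays and so less precision. In them the differences were 1.01 to 1.34 for Acot2, 0.59 to 0.63 for Ppargc1b, 0.46 to 0.52 for Rxrb and 0.58 to 0.72 for Acadvl. Rxrb passed in 4 of 9 other settings (0.46 to 0.52 over all alternatives), Acot2 in 7 and Acadvl in 8, and Ppargc1b in 8 of the 8 that kept its probe set.

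The lists of fatty acid activation and of lipid droplets held no called gene. Of 13 measured acyl-CoA synthetases and binding proteins of the list, which leaves out Slc27a2 and in which 3 others had no probe set named for them here, 0 passed (limma), 1 had an unadjusted p under 0.05, and the median was -0.04. That 1 was Slc27a1, or FATP1, the relative of Slc27a2 with the smallest p, which read 4.66, 4.76 and 4.75 in wild-type cells and 5.14, 5.40 and 5.62 in knockout cells. Its groups did not overlap, and its difference was 0.67 (SE 0.13, limma adjusted p = 0.0643, below 0.05 in 3 of 15 alternatives). Slc27a3, Slc27a4 and Slc27a5 stood at 0.07, -0.12 and 0.16 (limma adjusted p = 0.841, 0.801 and 0.697). The acyl-CoA binding protein Dbi stood at -0.37 (limma adjusted p = 0.539).

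Of 18 lipid droplet and lipolysis genes 0 passed (limma), 3 had an unadjusted p under 0.05, all 3 higher, and the median was 0.07. Hilpda, a hypoxia-induced lipid droplet protein that inhibits lipolysis, stood at 0.95 (SE 0.20, limma adjusted p = 0.0795), from 7.45, 6.87 and 6.99 to 8.13, 8.34 and 7.69. The hormone-sensitive lipase Lipe stood at 0.55 (SE 0.16, limma adjusted p = 0.187). Of the relatives of Plin2, Pdk4 and Angptl4, the smallest p-values were those of Plin3 (-0.21, limma adjusted p = 0.417), Pdk2 (0.20, limma adjusted p = 0.383) and Angptl7 (0.41, limma adjusted p = 0.209). Over all 20 measured relatives of the members 1 was called, the receptor partner Rxrb, and the median was 0.09.

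**Figure D5:**
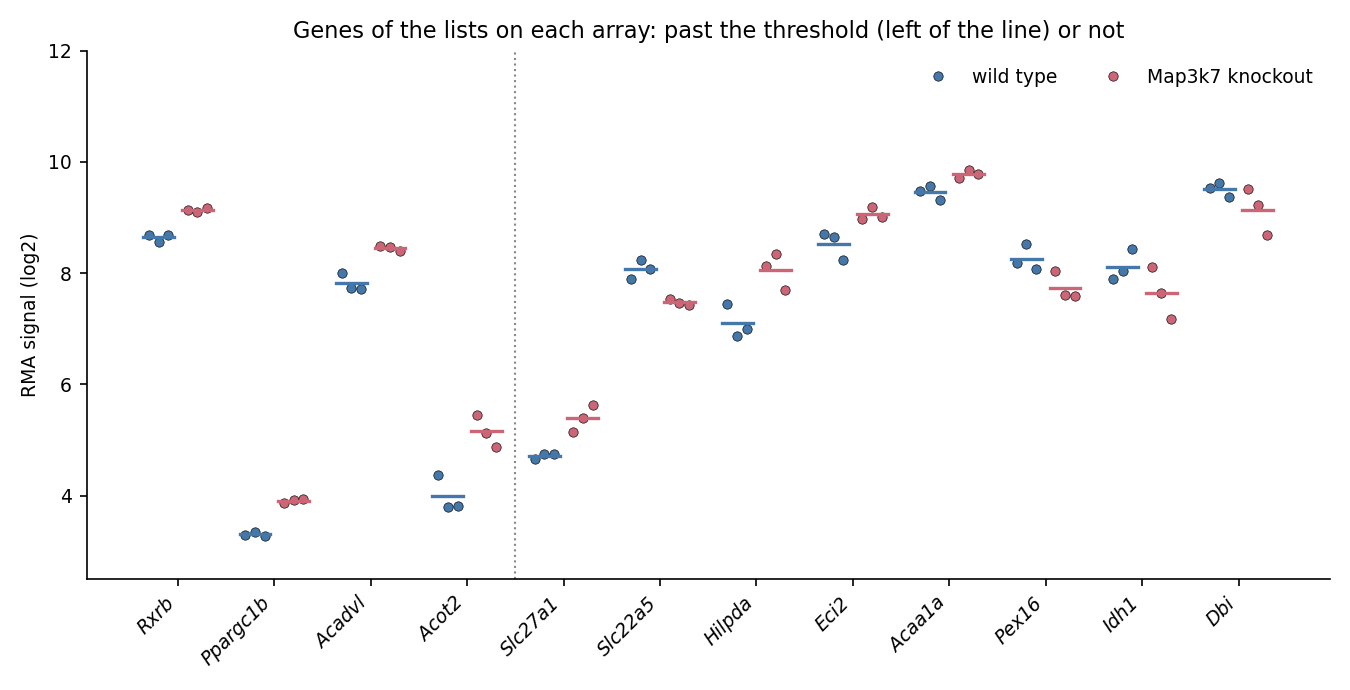
RMA signal (log2) on each array for 12 genes named from the lists, with a short line at each group mean; genes left of the dotted line were past the threshold. Rxrb, Ppargc1b, Acadvl and Acot2 have knockout arrays above all wild-type arrays, and Slc27a1, Hilpda, Eci2 and Acaa1a show the same order without passing. Slc22a5 and Pex16 have knockout arrays below all wild-type arrays, also without passing, and the groups of Idh1 and Dbi overlap.

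Some macrophage markers were higher in the knockout cells, as Slc27a2, Pex11a and Cpt1a were. In bulk samples like these, more or fewer cells of a type and more or less RNA per cell cannot be told apart. Of 18 macrophage markers 3 were called higher and 0 lower, Cd163 (1.58), Cd5l (1.51) and Mertk (1.16) (limma adjusted p = 0.00933, 0.0166 and 0.0115). Of the 18 differences 14 were positive and 4 negative. An unadjusted p under 0.05 (limma) was found for 8, 7 higher and 1 lower, against 2805 of all 17097 genes. Named after their values were seen, Fcgr1 stood at 0.81 and Hmox1 at -0.53, both without overlap (limma adjusted p = 0.0721 and 0.134). Adgre1, named in the same way, stood at -0.28 (limma adjusted p = 0.463). The mean level of the 18 was 6.35 to 6.43 on the wild-type arrays and 6.57 to 6.94 on the knockout arrays. Among knockout arrays this mean was lowest in replicate 3. There Slc27a2 and both Pex11a probe sets were highest and Cpt1a was lowest, with its 3 knockout arrays close together. Leaving out wild-type replicate 1, 2 or 3 gave 1, 1 and 2 called markers, and leaving out knockout replicate 1, 2 or 3 gave 3, 0 and 7. The part of these markers' shift in the members' differences was not tested.

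Hepatocytes, a main source of Slc27a2, and adipocytes gave no call. Of 8 hepatocyte markers 0 were called and 5 were below the median on all arrays (mean level 3.48 to 3.69 in wild-type and 3.49 to 3.58 in knockout cells), with the smallest p for Cyp2e1 (-0.08, limma adjusted p = 0.819). Of 5 adipocyte markers 0 were called (3.86 to 3.97 against 3.72 to 3.79), and Adipoq stood at -0.45 (limma adjusted p = 0.128). Of 10 neutrophil markers 0 were called (4.18 to 4.42 against 4.43 to 5.19), with Mmp8 at 0.84 (limma adjusted p = 0.139). The largest differences of that list, named after their values were seen, were those of S100a8 (2.28, no overlap, limma adjusted p = 0.147) and S100a9 (1.53, limma adjusted p = 0.343), with knockout replicate 2 highest in both. In that list 7 differences were positive and 3 negative, and Mmp9, also named after its values were seen, stood at -0.77 (limma adjusted p = 0.293). Of 5 erythroid markers 0 were called (4.61 to 5.25 against 3.82 to 4.28), with all 5 differences negative and Hba-a1 at -3.57 (limma adjusted p = 0.0713) for the brightest of 3 probe sets. Another Hba-a1 probe set was called lower (-4.00, limma adjusted p = 0.0352), and the gene passed in 4 of 8 other settings and 1 of 6 fits with 1 array left out. Of 8 B and T cell markers 0 were called (5.25 to 5.30 against 4.99 to 5.16), with Ms4a1 at -0.51 (limma adjusted p = 0.275).

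None of the measured neighbours of both genes on their chromosomes passed the threshold. The protein-coding genes on either side of Slc27a2 in the RefSeq order are Atp8b4, a phospholipid transporter, and Hdc, histidine decarboxylase, which stood at 0.50 (SE 0.13, limma adjusted p = 0.147) and 0.47 (SE 0.19, limma adjusted p = 0.368), both with knockout arrays above all wild-type arrays. Dtwd1 and Gabpb1, the next outward, stood at -0.25 and -0.46 (limma adjusted p = 0.656 and 0.171). The Gabpb1 groups did not overlap either, with knockout arrays below all wild-type arrays. Groups without overlap were found for 21.2% of all genes. Pex11a lies between Plin1 and Wdr93, which had no probe set named for them here, and the next genes, Kif7 and Mesp1, stood at -0.03 and 0.04 (limma adjusted p = 0.962 and 0.943). These neighbours were named for their position.

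The genes whose signals over the 6 arrays lay closest to that of Slc27a2, once the wild-type mean of each was subtracted, were Spon1 (root mean square difference 0.52), Lifr (0.76), Pex11a (0.82), Fkbp5 (1.02) and Sult1a1 (1.02). For Pex11a they were Fkbp5 (0.27), Sult1a1 (0.29), Lifr (0.41), Il10 (0.61) and Sqor (0.63). With 6 arrays in 2 groups this measure is set mostly by the size of the rise, so these are genes with rises of like size.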

How the data were processed

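RNA of 6 samples, 3 wild-type and 3 knockout, was measured on 1 array each. Per the submitters' processing notes, the authors made the deposited log2 values with RMA in version 1.1 of Affymetrix Expression Console. RMA corrects background, normalizes by quantiles and sums up the probes of a set. The log2 scale was read from the values (2.58 to 13.9). No genome build is given in the sources used here. The 104 control rows were left out. Platform annotation gave 28898 probe sets 1 symbol, 551 several and 15588 none, and only those with 1 symbol named a gene; 28689 matched the RefSeq gene table (GRCm38.p6) by Entrez ID, and 0 symbols changed.

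Knockout minus wild type was fitted with limma 3.58.1 in R 4.3.3 (lmFit, eBayes, no covariates) over 45037 probe sets, 2-sided, with Benjamini-Hochberg adjustment over all and a threshold of 0.05. Where a gene had several probe sets, that of highest mean over the 6 arrays stood for it. Intervals are at 95%. Fitting was tested on simulated data with known changes.

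The members and the gene lists were chosen with earlier results of these data known. Named genes were the members and their closest relatives (those called, or that with the smallest p), from each pathway list up to 8 called genes or the 2 with the smallest p, from each marker list up to 4 called or the 1 with the smallest p, and the 5 nearest patterns. Alternatives were other probe set filters, normalizations, gene summaries and variance models, array weights, the replicate block and leaving out each array. Figures were drawn with matplotlib 3.10.9.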

Additional observations from a re-analysis of the deposited data

How the results depend on the processing

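Of the 7 members not chosen for their rise, 1 was called in 9 of 9 alternative settings and 0 with any 1 array left out. Over all genes 285 were called, 459 on means of probe sets and 542 with the replicate block (61 to 475 with 1 array left out). The partner and coregulator list, with 2 called, had 0 on probe sets no dimmer than the median, where Ppargc1b is left out and Rxrb does not pass, and 1 without probe sets ending in x_at or s_at, after quantile normalization again, with a trended variance or with the replicate block (0 to 1 with 1 array left out). The other PPAR targets, with 2 called, had 1 without x_at or s_at probe sets, after quantile normalization again or with a trended variance, and 5 with the replicate block, 3 of them higher (0 to 2 with 1 array left out). The mitochondrial list, with 1 called, had 0 with a trended variance and 2 with array weights or the replicate block (0 to 0 with 1 array left out). The relatives of the members, with 1 called, had 0 on probe sets no dimmer than the median, without x_at or s_at probe sets, after quantile normalization again or with a trended variance, and 2 with array weights (0 to 1 with 1 array left out). Acyl-CoA synthetases had 1 with array weights or the replicate block (0 to 1 with 1 array left out), and lipid droplet genes 1 with the replicate block. The cause was not tested. Among 10 promoter windows 0 held the repeat with 0 or 1 mismatches, 1 with 2 and 2 with 3 mismatches allowed, and 0 with 0 mismatches in the whole 300 bases.

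Both groups number their replicates 1 to 3. Deviations of same-numbered arrays correlated at 0.05, 0.13 and 0.32, and those of different-numbered arrays at -0.28 to 0.22. These values do not settle whether the numbers pair samples. The labels name no pairing, so the replicate block stayed an alternative, under which Cpt1a had a limma adjusted p of 0.0409. Medians of all lists of peroxisomal genes stayed within -0.08 and 0.06 over the alternatives. Signals near the array median limit what can be seen for Ppara, Ppard, Pdk4 and Angptl4.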
